A study of Mus musculus with 7 samples.

Results

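Converted cells with UMIs of both Olig2 and Sox10, called double-positive here, made up 108 of 569 cells in the libraries of transduced cells, out of 1124 cells in the whole series. The values that chose them were the counts of these 2 genes themselves, with 1 UMI (unique molecular identifier, 1 captured transcript) of each sufficing. All cells came from C57BL/6 mice and each population was a single droplet library. MEF-3F were embryonic fibroblasts and PC-3F cerebral pericytes transduced with viruses that carry Olig2, Sox10 and Nkx6-2. MEF-2F and PC-2F were the same kinds of donor cell given Olig2 and Sox10. Primary oligodendrocyte progenitor cells (pOPC) and untransduced fibroblasts (MEF) and pericytes (PC) served for scale. Converted cells and pOPC had been grown in the same OPC medium, and the donors in media of their own. The labels give neither the promoter of the viruses nor the time since transduction, and they name no separate cultures or animals, so nothing below separates a library from its population.

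Olig2 is a basic helix-loop-helix factor and Sox10 an HMG-box factor of the oligodendrocyte lineage. In the brain, OPCs express both from specification onwards, and Sox10 stays on as they mature and activates myelin genes. Outside the brain Sox10 also marks neural crest and Schwann cells, which lack Olig2. The comparison made here asks what else differs, within a library, between double-positive cells and double-negative cells, which had no UMI of either gene. Cells with UMIs of 1 gene only are called Olig2-only and Sox10-only.

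No double-positive cell was found among the 82 cells of MEF-2F. MEF-3F held 28 of 161, PC-2F had 60 of 179 and PC-3F had 20 of 147. As shares with exact (Clopper-Pearson) 95% binomial intervals, which cover counting error only, these were 0% (up to 4.40%), 17.4% (11.9 to 24.1), 33.5% (26.7 to 40.9) and 13.6% (8.51 to 20.2). In pOPC the share was 76.9% (68.8 to 83.7), and neither donor library held such a cell, with upper bounds of 2.78% for 131 MEF and 1.26% for 290 PC cells. MEF-2F did hold 13 Olig2-only and 14 Sox10-only cells, whose medians were 1 Olig2 and 1.5 Sox10 UMIs, so both genes were captured there but not together in a cell. Independent detection of the 2 genes would give 2.22 such cells in MEF-2F, so finding 0 lies near that count. The same product was 19.3 in MEF-3F (28 found), 45.8 in PC-2F (60), 16.4 in PC-3F (20) and 99.8 in pOPC (103). These differences were not tested. No barcode was shared between libraries. Nkx6-2 had at most 2 UMIs in any library, also in those given this factor, and a 3′ tag can miss a viral coding sequence, so it checks nothing. The same limit holds for Olig2 and Sox10, which were also given by virus. Their UMIs may come from the virus, from the cell's own genes or from both, and these data cannot tell which.

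**Figure D1:**
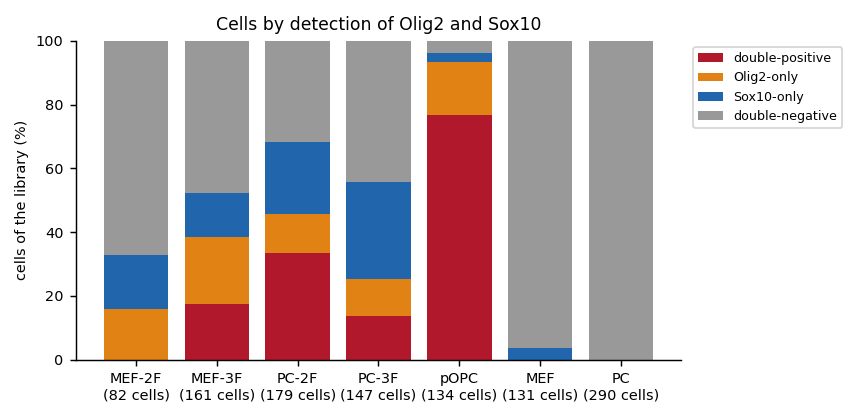
Share of each library's cells (y axis, %) in the 4 classes set by detection of Olig2 and Sox10, for the converted libraries and for pOPC, MEF and PC. Double-positive cells take 33.5% of PC-2F and 76.9% of pOPC, and are missing from MEF-2F, MEF and PC.

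Membership went with depth. The median UMIs per cell were 4673.5 in double-positive against 1262 in double-negative cells of MEF-3F, 7080 against 5756 in PC-2F, and 4442.5 against 3625 in PC-3F. At the threshold, 5 of 28 MEF-3F members, 9 of 60 PC-2F members and 5 of 20 PC-3F members had exactly 1 UMI of each gene, while 10, 24 and 5 had 2 or more of both. The Olig2-only and Sox10-only cells lie just outside it, and their median was 1 UMI of the detected gene in each of these 3 libraries. Per cell, double-positive members held 1 to 11 Olig2 UMIs in MEF-3F, 1 to 17 in PC-2F and 1 to 3 in PC-3F. A double-negative cell is therefore one in which neither gene was captured, which does not show that it lacked them. With classes set after thinning to 1000 UMIs, only 1 library kept 5 or more members. The matrix of MEF-3F joins 2 blocks of barcodes, and all 28 members lay among the 121 cells of the second block, none among the 40 of the first, which held 27 of the 77 double-negative cells. To measure all cells at equal UMIs, each cell was thinned at random to 1000 UMIs and Olig2 and Sox10 were left out of every measure. The classes were still set at full depth. Members therefore remained the cells that were deeper before thinning, and differences that go with depth were not removed. Thinning kept all 108 members, and 51 of 77, 57 of 57 and 64 of 65 double-negative cells of MEF-3F, PC-2F and PC-3F. Levels below are CPM of these thinned sums, so 1 UMI weighs 35.7 CPM in the members of MEF-3F, 16.7 CPM in those of PC-2F and 50 CPM in those of PC-3F.

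Across the 3 libraries with members, double-positive cells had a higher sum of a list of OPC genes and a lower sum of a list of fibroblast genes than double-negative cells of the same library. Not every mesenchymal gene was lower in each library. By limma on log2(CPM + 50) with library as a block, 14 genes (0.307% of 4565 tested) were higher and 37 (0.811%) lower at a Benjamini-Hochberg adjusted p under 0.05. Of the 14, 13 were higher in all 3 libraries, and of the 37, 30 were lower in all 3. By size alone, at least 2-fold in every library on the same scale, 6 genes (0.131%) were higher and 14 (0.307%) lower. The calls rest on both PC-derived libraries and on the random draw, since limma called 0 genes higher and 8 lower without PC-2F, 0 and 0 without PC-3F, and 4 and 22 with a second draw. With double-negative cells of MEF-3F taken from its second block only, 10 genes were higher and 31 lower. At an unadjusted p under 0.05 the full comparison had 159 higher and 203 lower genes. Over all 4565 genes the difference was positive for 2335 and negative for 2230. These shares are the background for the counts of list genes below. With 2 residual degrees of freedom, the p-values lean on a spread shared by all genes (96.0 prior degrees of freedom), so the values of each library are given first. The members of both PC-derived libraries also had more mitochondrial UMIs, with medians of 1.62% against 0.989% in PC-2F and 0.700% against 0.368% in PC-3F, while MEF-3F had 0.661% against 0.806%, and the part of this was not tested. Cells of 1 library are not replicates, and n is 3 libraries throughout.

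Members differed from double-negative cells in one further respect, to be read beside every gene below. Among thinned cells, UMIs of 2 or more of 6 mesenchymal marker genes (Dcn, Lum, Thy1, Bgn, Pdgfrb and Serpinf1) were found in 3 of 28 members against 6 of 51 double-negative cells of MEF-3F. In PC-2F it was 1 of 60 against 23 of 57, and in PC-3F 0 of 20 against 16 of 64. For scale, 33.7% of untransduced PC cells met this mark. Before thinning, the same mark was met by 10 of 28 members against 15 of 77 double-negative cells of MEF-3F, by 7 of 60 against 29 of 57 of PC-2F and by 1 of 20 against 19 of 65 of PC-3F. The marked share was thus lower in members of both PC-derived libraries on either count, and before thinning it was higher in members of MEF-3F, whose cells were deeper. When all cells marked before thinning were left out, 90 members and 110 double-negative cells remained, and limma called 0 genes higher and 1 lower (Ctgf).

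The OPC list showed the difference on the side of the lineage. Its 29 genes in the files summed to 7250 CPM in members against 5275 CPM in double-negative cells of MEF-3F, to 6400 against 3579 CPM in PC-2F, and to 6400 against 4984 CPM in PC-3F. All 3 libraries had the higher sum in members, with a mean log2 ratio of 0.55 ± 0.25 (SD, n = 3 libraries), and the smallest exact two-sided sign-flip p that 3 libraries allow is 0.25, so no p is given. Without the cells with mesenchymal markers the mean ratio was 0.17. In double-positive cells of pOPC, which express the programme natively, the same list stood at 12660 CPM. Of 17 members of the list tested, 4 were called higher and none lower, against 0.307% and 0.811% of all genes tested. A positive difference was found for 14 of the 17, against 2335 of all 4565. The median log2 difference was 0.50 against 0.01 over all genes tested.

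Olig1, the paralog and chromosomal neighbour of Olig2, was at 1036, 817 and 300 CPM in double-positive cells, against 412, 123 and 156 CPM in double-negative cells. Here and below, 3 values in a row stand for MEF-3F, PC-2F, PC-3F in that order. It was higher in members of each library, 2.52-fold (95% counting interval 1.39 to 4.64), 6.65-fold (3.00 to 17.4) and 1.92-fold (0.57 to 5.83), and the last interval includes 1. By limma the log2 difference was 1.63 ± 0.32 (SE), adjusted p = 0.00069. Without cells with mesenchymal markers it was 1.12 (limma adjusted p = 0.35), still positive but no longer called. UMIs of Olig1 were seen in 67.9% of members against 29.4% of double-negative cells for MEF-3F, 41.7% against 8.77% for PC-2F and 25% against 12.5% for PC-3F, all below the 95.9% of double-positive pOPC.

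Cspg5, which encodes the brain proteoglycan neuroglycan C, was at 321, 717 and 900 CPM in members and at 137, 123 and 453 CPM in double-negative cells (limma log2 difference 1.51 ± 0.32 SE, adjusted p = 0.0026). Every library had it higher in members, most of all PC-2F, at 5.84-fold (2.60 to 15.4). Ptprz1, a receptor-type phosphatase of glial progenitors, was at 500, 317 and 200 CPM against 157, 52.6 and 125 CPM (1.39 ± 0.37, adjusted p = 0.030). Fabp7, a lipid chaperone gene of radial glia and OPCs, was at 1179, 267 and 150 CPM against 608, 35.1 and 46.9 CPM (1.4 ± 0.36, adjusted p = 0.020). In PC-3F these 2 genes rest on 4 and 3 UMIs in members, and the counting intervals of their ratios there include 1.

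Other OPC genes did not pass the test. Pdgfra, the receptor by which PDGF drives OPC division, was at 71.4, 267 and 500 CPM in members against 39.2, 316 and 656 CPM in double-negative cells. In each library the difference lay within counting error, and the log2 difference was -0.06 ± 0.35 (SE, limma adjusted p = 0.99). Cspg4, the NG2 proteoglycan gene, was at 250, 917 and 1250 CPM against 373, 947 and 703 CPM (0.03 ± 0.28, limma adjusted p = 0.99), and Sox2, a progenitor factor gene, at 464, 200 and 50 CPM against 529, 87.7 and 15.6 CPM (limma adjusted p = 0.82). In PC-3F alone Cspg4 was 1.78-fold higher in members (1.04 to 2.96), and the other libraries did not share this. None of these p-values shows that the classes have equal levels.

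**Figure D2:**
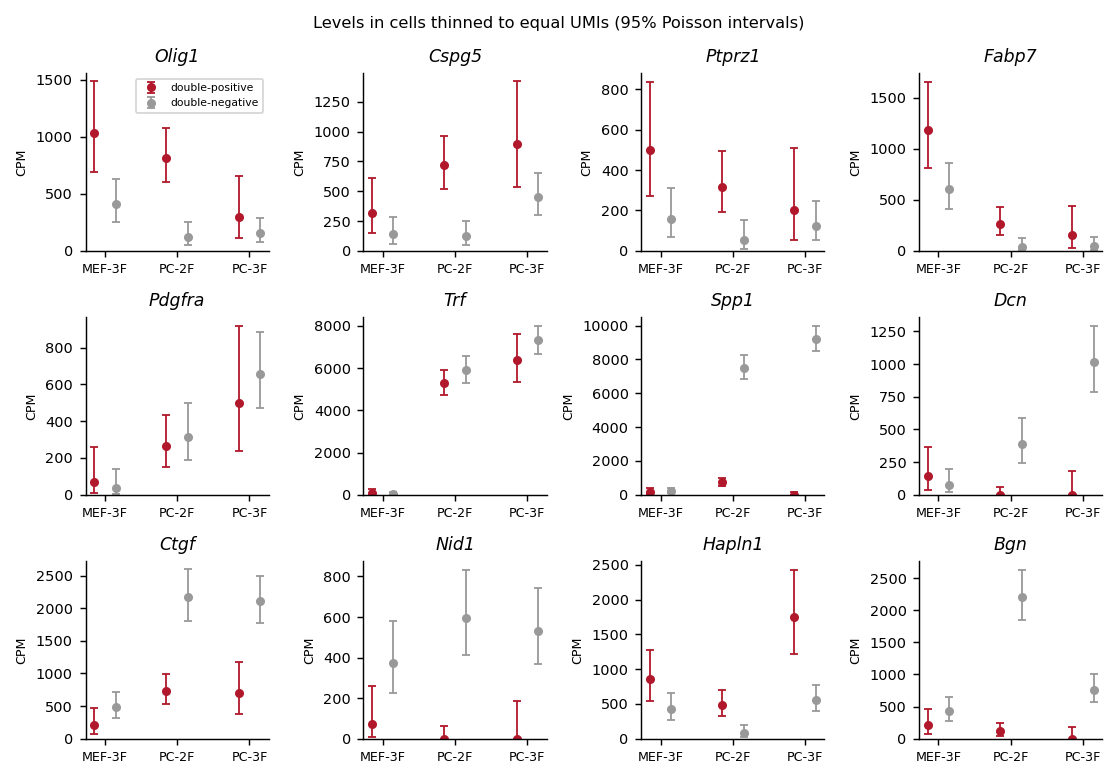
Level (CPM, y axis) of 12 genes in double-positive (red, left) and double-negative cells (grey, right) of MEF-3F, PC-2F and PC-3F, all thinned to 1000 UMIs per cell, with exact 95% Poisson intervals. Olig1, Cspg5, Ptprz1, Fabp7 and Hapln1 lie higher in members of each library, Ctgf and Nid1 lower, and Spp1 and Dcn lower in the PC-derived libraries.

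Genes of myelinating and Schwann cells differed in direction between libraries. The list of reported Sox10 target genes summed to 2929 CPM in members against 4941 CPM in double-negative cells of MEF-3F, but to 4183 against 2035 CPM in PC-2F and 4750 against 3516 CPM in PC-3F, and none of its 7 tested genes was called. Ednrb, an endothelin receptor gene of neural crest and glial progenitors, was at 321 CPM in members against 1039 CPM in double-negative cells of MEF-3F, a 3.23-fold lower level (1.58 to 7.46), where 3 of 28 members and 15 of 51 double-negative cells carried it. In the PC-derived libraries it had at most 2 UMIs in either class. By limma over the 3 libraries its log2 difference was -0.38 ± 0.41 (SE, adjusted p = 0.88).

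Few differentiation genes of the oligodendrocyte lineage could be told apart between the classes. Gpr17, a receptor gene of committed progenitors, was at 179, 150 and 450 CPM in members against 19.6, 52.6 and 125 CPM in double-negative cells, higher in each library but short of the threshold (1.31 ± 0.40, limma adjusted p = 0.092). Erbb3, a neuregulin receptor gene, was at 429, 650 and 1200 CPM against 157, 474 and 563 CPM (limma adjusted p = 0.28). Trf, the transferrin gene abundant in oligodendrocytes, was at 71.4, 5300 and 6400 CPM in members against 39.2, 5912 and 7313 CPM. Both classes were low in MEF-3F and high in the PC-derived libraries. Of 16 differentiation genes tested 0 were higher and 1 was lower, the lipocarrier gene Apod, at 0, 1267 and 250 CPM in members against 39.2, 1737 and 3438 CPM (-1.31 ± 0.33, limma adjusted p = 0.020).

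Cartilage matrix genes were higher in members than in double-negative cells as well, though not in members alone. In chondrocytes Sox9, the paralog of Sox10, drives the genes of collagen II, collagen IX and link protein. Its 13 genes summed to 18143 CPM in members against 15275 CPM in double-negative cells of MEF-3F, to 9417 against 4807 CPM in PC-2F, and to 14100 against 8219 CPM in PC-3F. The mean log2 ratio was 0.66 ± 0.37 (SD, n = 3 libraries), and 0.30 without cells with mesenchymal markers. Of 10 genes tested 4 were called higher (Hapln1, Col9a2, Col9a1 and Lect1) and none lower, against 0.307% and 0.811% of all genes tested. Hapln1, whose product links proteoglycans to hyaluronan in cartilage and brain matrix, was at 857, 483 and 1750 CPM in members against 431, 87.7 and 563 CPM (1.56 ± 0.29 SE, limma adjusted p = 0.00027). Col9a2, a collagen IX chain gene, was at 1357, 233 and 2400 CPM against 1137, 17.5 and 1016 CPM (1.33 ± 0.29, limma adjusted p = 0.0028), with MEF-3F showing only 1.19-fold (0.77 to 1.83). Lect1, the older symbol of Cnmd, which encodes chondromodulin, was at 1143, 300 and 350 CPM against 529, 105 and 109 CPM (limma adjusted p = 0.047). Col2a1, the collagen II gene, was at 2071, 16.7 and 0 CPM in members against 2451, 123 and 62.5 CPM, so not every gene of the list was higher. Hapln1 and Col9a2 had no UMI in double-positive pOPC (97 thinned cells).

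The promoter windows of 4 called genes, 2 from the OPC and 2 from the cartilage list, are shown because these genes were higher together in cells chosen by a pair of DNA-binding factors. Windows run from 250 bases before to 50 after the annotated start, 5′ to 3′, from RefSeq on GRCm38.p6. Capitals mark matches to ACAAAG or ACAATG (SOX-type) and to CAGCTG or CAGATG (E-box type), searched on both strands.
Fabp7, chr10:57784673-57784972, plus strand: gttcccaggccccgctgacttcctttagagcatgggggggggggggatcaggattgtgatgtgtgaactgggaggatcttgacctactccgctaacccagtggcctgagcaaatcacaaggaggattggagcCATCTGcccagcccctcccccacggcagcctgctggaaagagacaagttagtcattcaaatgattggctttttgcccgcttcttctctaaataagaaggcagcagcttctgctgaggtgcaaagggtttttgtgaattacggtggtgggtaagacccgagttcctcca
Ptprz1, chr6:22875252-22875551, plus strand: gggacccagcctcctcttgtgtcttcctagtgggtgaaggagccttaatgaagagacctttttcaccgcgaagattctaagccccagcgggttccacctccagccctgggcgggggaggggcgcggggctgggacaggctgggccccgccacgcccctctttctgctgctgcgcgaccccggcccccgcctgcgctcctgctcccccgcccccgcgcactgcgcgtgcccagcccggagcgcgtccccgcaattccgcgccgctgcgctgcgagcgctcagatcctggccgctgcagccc
Hapln1, chr13:89540386-89540685, plus strand: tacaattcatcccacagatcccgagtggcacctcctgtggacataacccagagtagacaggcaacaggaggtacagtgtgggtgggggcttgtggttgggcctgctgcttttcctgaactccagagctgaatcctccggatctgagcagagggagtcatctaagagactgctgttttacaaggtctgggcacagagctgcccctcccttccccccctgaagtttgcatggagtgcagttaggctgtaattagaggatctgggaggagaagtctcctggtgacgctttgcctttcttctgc
Col9a2, chr4:121039316-121039615, plus strand: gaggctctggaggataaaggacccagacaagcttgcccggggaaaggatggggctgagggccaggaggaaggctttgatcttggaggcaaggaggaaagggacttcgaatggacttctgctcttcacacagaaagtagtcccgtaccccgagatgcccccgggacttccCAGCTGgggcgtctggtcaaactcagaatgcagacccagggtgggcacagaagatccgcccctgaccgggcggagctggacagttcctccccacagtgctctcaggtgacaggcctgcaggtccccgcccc
Fabp7 held 1 CAGATG on the opposite strand 118 bases before the start, Col9a2 1 CAGCTG 81 bases before it, and Ptprz1 and Hapln1 held neither kind of motif. Of 14 genes called higher 10 had a window, and 5 of the 10 had an E-box match and 1 a SOX match, against 33.4% and 31.7% of 27025 genes with a window. Of 37 called lower 24 had one, with 7 and 3 matching. These are letter matches only.

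Among other genes higher in members, Mtss1, which encodes a membrane-bending actin regulator, was at 286, 233 and 200 CPM against 39.2, 35.1 and 46.9 CPM in double-negative cells (1.70 ± 0.41 SE, limma adjusted p = 0.010). Cav1, a caveolae coat gene, was at 464, 700 and 900 CPM against 137, 298 and 406 CPM (1.2 ± 0.30, limma adjusted p = 0.020), at least 2-fold in each library. Ptrf, which encodes the partner coat protein cavin-1, went the other way, at 35.7, 83.3 and 50 CPM against 294, 649 and 250 CPM (-2.08 ± 0.38, limma adjusted p = 0.00023). Gatm, an enzyme gene of creatine synthesis, was called higher on PC-2F, at 1283 against 123 CPM, while MEF-3F had 143 against 157 CPM.

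On the other side stood matrix and mesenchymal genes. The fibroblast list summed to 21607 CPM in members against 31471 CPM in double-negative cells of MEF-3F, to 24750 against 32298 CPM in PC-2F, and to 24800 against 30703 CPM in PC-3F. The mean log2 ratio was -0.41 ± 0.12 (SD, n = 3 libraries), and -0.27 without cells with mesenchymal markers. Of those markers, Dcn, Lum, Thy1, Bgn and Serpinf1 are in this list, so part of that shift follows from the choice of cells left out. Of 26 genes tested 4 were lower (Bgn, Dcn, Fstl1 and S100a4) and 0 higher, against 0.811% and 0.307% of all genes tested. Bgn and Dcn are among the markers chosen after seeing the data. A negative difference was found for 24 of the 26, against 2230 of all 4565, and the median log2 difference was -0.94. In pOPC double-positive cells the list stood at 3464 CPM, far below members and double-negative cells alike. Col1a1, the collagen I gene, was at 107, 300 and 850 CPM in members against 235, 561 and 516 CPM, with the order turned in PC-3F (limma adjusted p = 0.78). Sparc, a matrix protein gene, was at 4643, 5233 and 4600 CPM against 7824, 4404 and 4797 CPM (limma adjusted p = 0.91).

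Nid1, which encodes the basement membrane protein nidogen, was at 71.4 CPM in members of MEF-3F and had 0 UMIs in those of PC-2F and PC-3F, against 373, 596 and 531 CPM in double-negative cells. It was 5.22-fold lower (1.26 to 46.2) in members of MEF-3F. With members set at 3 UMIs per library, PC-2F gave a level at least 11.9-fold lower and PC-3F one at least 3.54-fold lower (limma adjusted p = 9.3e-09 for the 3 together). Spp1, the osteopontin gene, was at 179, 733 and 0 CPM against 235, 7509 and 9219 CPM. Members of PC-2F had it 10.2-fold lower (7.50 to 14.3), those of PC-3F at least 61.5-fold lower, and in MEF-3F the groups lay within counting error. Its limma adjusted p of 3e-11 became 0.82 with a robust variance estimate. Bgn, the biglycan gene, was at 214, 117 and 0 CPM against 431, 2211 and 766 CPM (limma adjusted p = 9.6e-10). Dcn, which encodes decorin, had 143, 0 and 0 CPM against 78.4, 386 and 1016 CPM, so it was lower in the members of both PC-derived libraries only. For Dcn the PC-derived minus the MEF-derived log2 difference was -4.15 ± 0.90 (SE), in a limma term that called 5 genes (0.11%). The MEF-derived arm of that term is 1 library, assumed to vary like the others, and with 1 residual degree of freedom and an infinite prior its spread is wholly that shared by all genes. Pdgfrb, the receptor gene of mural cells, had no UMI in any of the 108 members once thinned, against 19.6, 228 and 234 CPM in double-negative cells (limma adjusted p = 0.026). It met the filter of 50 CPM only through the double-negative cells, so this p-value is no separate support for a difference. Of the 37 genes called lower, 3 likewise had no UMI in thinned members of any library, Pdgfrb included. Dcn, Bgn and Pdgfrb are also 3 of the marker genes above, so their difference and the share of marked cells are one observation. Without cells with mesenchymal markers, limma gave log2 differences of -1.97 for Nid1, -1.30 for Bgn and -0.93 for Spp1, none of them called. Bgn is itself a gene by which those cells were left out, so its change was partly set by that choice.

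Genes induced by TGF-beta or YAP had lower sums in members of each library. The list summed to 2036 against 2804 CPM in MEF-3F, 1650 against 4421 CPM in PC-2F and 1350 against 4531 CPM in PC-3F, a mean log2 ratio of -1.19 ± 0.65 (SD, n = 3 libraries). Per 1000 UMIs, members and double-negative cells of MEF-3F had the same median of 2 list transcripts, and Olig2-only and Sox10-only cells 1 and 1.5. In PC-3F the median was 1 in members and in both of those classes, against 2 in double-negative cells (upper quartile 7.25, highest 18). In PC-2F it was 1 in members, 2 in Olig2-only, 3 in Sox10-only and 3 in double-negative cells. Of 6 genes tested 2 were lower (Ctgf and Tgfbi), against 0.811% of all genes tested. All 6 had a negative difference, against 2230 of all 4565, with a median of -0.96. Ctgf, which encodes a secreted connective tissue growth factor, was at 214, 733 and 700 CPM in members against 490.2, 2175 and 2109 CPM, 2.29-fold (0.92 to 6.82), 2.97-fold (2.09 to 4.29) and 3.01-fold (1.74 to 5.66) lower. By limma the log2 difference was -1.37 ± 0.26 (SE), adjusted p = 0.00027, and it was -1.53 (adjusted p = 0.020) without cells with mesenchymal markers. Tgfbi, a TGF-beta induced matrix gene, was at 250, 50 and 50 CPM against 333, 754 and 1078 CPM, and its log2 difference of -2.36 became -0.10 without those cells.

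The cell cycle list summed to 1536 against 1020 CPM in MEF-3F, 4383 against 3719 CPM in PC-2F and 4700 against 2031 CPM in PC-3F. No gene of 21 tested was called in either direction, and Mki67, a proliferation marker gene, was at 0, 83.3 and 200 CPM in members against 39.2, 105 and 78.1 CPM. Cholesterol synthesis genes, of which OPCs use many for membrane growth, had a mean log2 ratio of 0.40 ± 0.22 (SD, n = 3 libraries), with 0 of 13 called. Endothelial, keratin and microglial markers were at or near 0, with at most 3 UMIs of a list in either class.

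**Figure D3:**
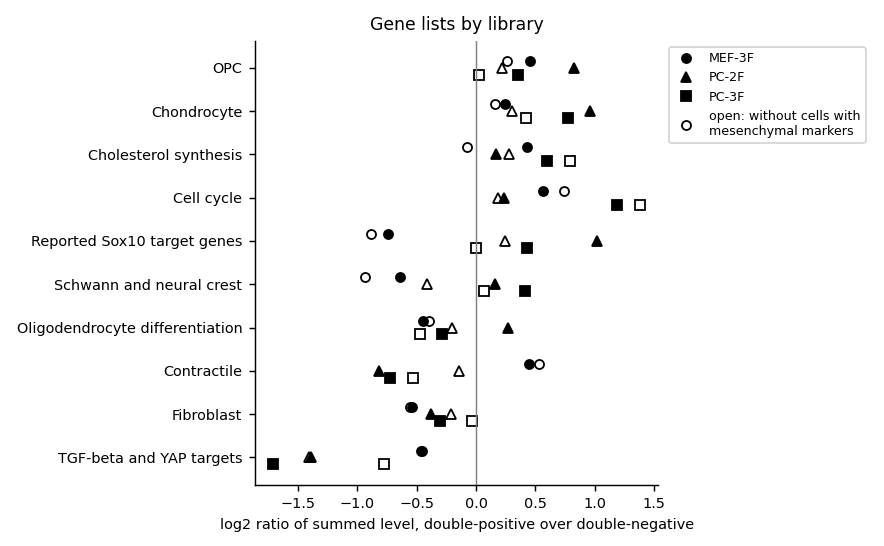
Log2 ratio of the summed level of 10 gene lists, double-positive over double-negative cells (x axis), in MEF-3F, PC-2F and PC-3F, with open symbols after cells with 2 or more mesenchymal markers were left out. OPC, chondrocyte and cell cycle lists lie above 0 and fibroblast and TGF-beta and YAP lists below 0 in all 3 libraries, and the OPC values move towards 0 in the open symbols.

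As a whole-profile measure, every thinned cell was described by non-negative weights on the mean profiles of pOPC and both donors over 1974 discriminating genes, Olig2 and Sox10 excepted. The median pOPC weight of members was 48.2% (quartiles 37.9 and 55.9) for MEF-3F, 42.5% (38.4 and 49.8) for PC-2F and 39.2% (37.2 and 45.3) for PC-3F. In double-negative cells it was 38.0% (30.9 and 48.0), 23.2% (6.01 and 36.3) and 26.6% (9.50 and 37.4). Member medians were higher than those of double-negative cells in each library, but so were those of cells with 1 gene only. In MEF-3F, PC-2F and PC-3F, Olig2-only medians were 49.3%, 38.0% and 35.4%, and Sox10-only medians 43.7%, 33.4% and 36.5%. The higher weight was thus not particular to members. No member exceeded 79.6%, while held-out pOPC cells lay at 96.6% or above. The lowest members stood at 26.5% (MEF-3F), 9.78% (PC-2F), and 27.8% for PC-3F. The highest double-negative cells of PC-2F (67.8%) and PC-3F (56.7%) exceeded the highest members there (61.0% and 50.3%), so the classes overlapped in each library. Members of PC-2F and PC-3F, though of pericyte origin, had median MEF weights of 29.1% and 29.3%, with PC weights of 24.0% and 29.1%. Double-negative cells there had median MEF weights of 26.1% and 30.2%. The profiles thus do not fully span these cells, and the pOPC weight is not a direct measure of nearness to pOPC. Converted cells also shared a medium with pOPC and not with the donors, and its part was not tested. These weights describe cells and carry no test.

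**Figure D4:**
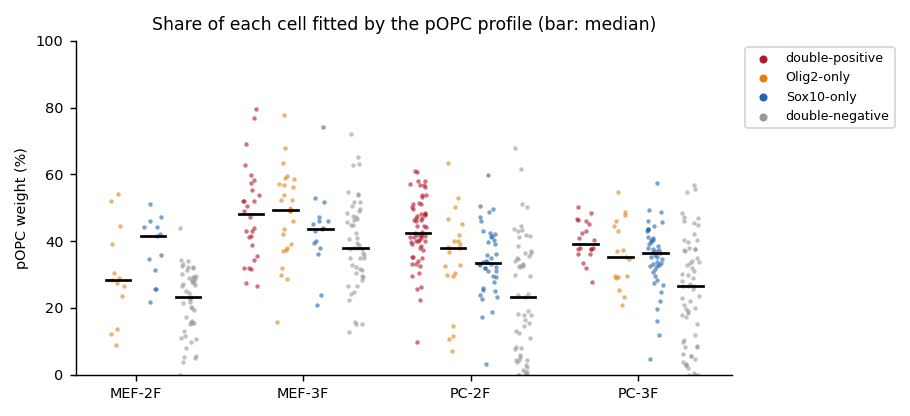
pOPC weight per thinned cell (y axis, %) by class in the converted libraries, with a bar at the median. Medians of double-positive cells lie at 48.2%, 42.5% and 39.2% in MEF-3F, PC-2F and PC-3F, above those of double-negative cells. Medians of Olig2-only and Sox10-only cells also lie above the double-negative ones there, and Olig2-only cells of MEF-3F (49.3%) above members. No member reaches 96.6%, the lowest held-out pOPC cell (not plotted).

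Cells with UMIs of only one of the genes were compared as a description, with no test. In PC-2F the OPC list was at 6400 CPM in double-positive, 4714 in Olig2-only, 4350 in Sox10-only and 3579 CPM in double-negative cells, an ordered series. Olig1 followed Olig2 there, at 817, 524, 150 and 123 CPM in the same order. In PC-3F the list differed little between the first 3 classes (6400, 6059 and 6356 CPM), and in MEF-3F Olig2-only cells (7148 CPM) resembled members. MEF-2F, which had no member, showed the widest split. Its 13 Sox10-only cells had the reported Sox10 targets at 17692 CPM and the Schwann list at 13154 CPM, against 2154 and 2538 CPM in its 13 Olig2-only cells and 5939 and 5837 CPM in double-negative cells. There Ednrb was at 5846 CPM in Sox10-only cells and seen in 13 of 13, against 769 CPM in Olig2-only and 1408 CPM in double-negative cells. Its Olig2-only cells had the chondrocyte list at 20615 CPM against 538 CPM in Sox10-only and 14326.5 CPM in double-negative cells, and the OPC list at 5615 against 1462 and 2489.8 CPM. The cartilage genes there were thus not confined to Olig2-only cells, but the double-negative sum came from part of the cells. Per 1000 UMIs, double-negative cells had a median of 4 list transcripts (quartiles 1 and 19, highest 122), with 9 of 49 cells at 0. Olig2-only cells had a median of 21 (quartiles 1 and 40). All 13 Olig2-only cells lay in the first of 2 barcode blocks of MEF-2F, as did 10 of 14 Sox10-only cells. Untransduced MEF already held Sox10-only cells, 5 of 131, with 1 to 3 Sox10 UMIs each, while PC held none. The part of such donor cells in the Sox10-only cells of MEF-2F was not tested.

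**Figure D5:**
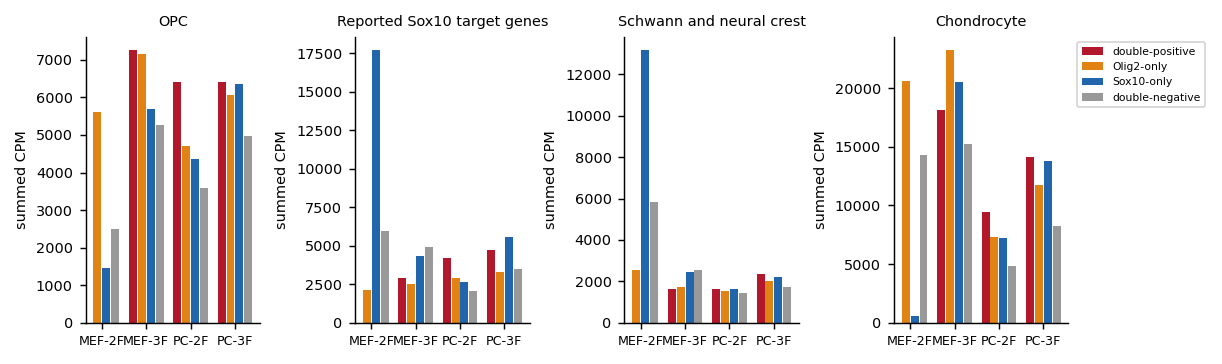
Summed level (CPM, y axis) of 4 gene lists by class in the converted libraries, with MEF-2F lacking a double-positive bar. In MEF-2F the Sox10 target and Schwann lists are highest in Sox10-only cells (17692 and 13154 CPM), and the chondrocyte list is at 20615 CPM in Olig2-only and 14326.5 CPM in double-negative cells.

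Members also varied among themselves. Per 1000 UMIs, OPC list transcripts ran from 1 to 17 with a median of 6.5 in MEF-3F, from 1 to 13 with a median of 6 in PC-2F and from 3 to 11 with a median of 6.5 in PC-3F, against a median of 13 in double-positive pOPC. In PC-2F, cells with more Olig2 and Sox10 per UMI had more OPC list transcripts (Spearman rho 0.45 over 60 cells, which share 1 library), and rho with the depth of the cell before thinning was -0.28. In MEF-3F the same rho was 0.16 over 28 cells and in PC-3F -0.07 over 20 cells, so the relation was not seen in each library. The level of Olig2 and Sox10 is built from the counts that chose the members. With at least 1 UMI of each required, shallow members have high values by construction. Cartilage list transcripts spanned 2 to 51 per 1000 UMIs among members of MEF-3F, a wider range than for the OPC list.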

How the data were processed

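Each of 7 libraries holds 1 population, captured in ddSEQ droplets with 3′ UMI tags, per the labels' protocols. The tools listed in the submitters' processing notes are STAR 2.5.3a, featureCounts 1.6.1 from Subread, UMI-tools 0.5.3 and bcl2fastq 2.19.1.403, with mm10 as build. What the authors deposited has no stated unit and is another kind of value than UMI counts. It was read as the place of a UMI count in the text-sorted list of counts that occur, separately for each block of barcodes, and decoded by aligning codes to whole numbers. No label states this, so it is inferred, and every level depends on it. In the blocks, codes decoded with a probability above 0.99 held 92.5% to 99.2% of UMIs. The design had taken the values for UMIs as deposited. Because they are decoded, no count model was fitted across genes, and Poisson and binomial intervals take the decoded UMIs as counts.

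A barcode had to hold at least 500 UMIs with less than 20% of them mitochondrial, which 1124 of 1140 did. Cells were thinned without replacement to 1000 UMIs, and sums per class and library scaled to CPM. A library entered the fit with 5 or more cells in both classes. Genes averaging 50 CPM or more were tested with limma 3.58.1 (R 4.3.3) on log2(CPM + 50), with trend, cell numbers as weights, library as a block and Benjamini-Hochberg adjustment over 4565 genes. Fold changes on this scale understate low genes. Intervals are exact at 95% and cover counting error only. Library totals lay between 229910 UMIs (MEF-2F) and 1292251 UMIs (PC), and a count of 0 is set at 3 UMIs for a bound. The limma step and the decoding were tested on simulated data. No doublet caller was run, and deep cells were left out as an alternative instead.

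Members and 20 gene lists were chosen with earlier results of these data known. Genes named are the 10 largest and smallest called differences with the same direction in all libraries, the 4 largest of each list, the 4 highest and lowest ratios per library and fixed lineage genes, not all shown. Col9a1, Fstl1 and Mgp were named after their values were seen, to complete counts. The mesenchymal markers were chosen after seeing the data. Promoters came from RefSeq. Some items are not reported here.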

Additional observations from a re-analysis of the deposited data

Results flagged for a closer look

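For 5 genes (0.11% of 4565 tested) the difference between double-positive and double-negative cells itself differed between the PC-derived libraries (PC-2F and PC-3F) and MEF-3F in limma's class by donor term. The MEF-derived side is a single library, so donor and library cannot be told apart. That fit has 1 residual degree of freedom and an infinite prior, so its SE and p-values rest on a spread shared by all genes, with MEF-3F assumed to vary like the others, and hold no replicate spread of the MEF-derived arm. On the log2 scale, the PC-derived difference minus the MEF-derived one was -4.41 for Spp1 (SE 0.61, limma adjusted p = 1.9e-09), -4.15 for Dcn (SE 0.90, limma adjusted p = 0.0069) and -2.99 for Bgn (SE 0.73, limma adjusted p = 0.036). It was -2.92 for Mgp, the matrix Gla protein gene (SE 0.68, limma adjusted p = 0.020), which was at 16.7 and 1100 CPM in members against 404 and 3313 CPM in double-negative cells of PC-2F and PC-3F, and at 286 against 176 CPM in MEF-3F. UMIs of 2 or more mesenchymal marker genes were found in 1 of 60 members against 23 of 57 double-negative cells of PC-2F, in 0 of 20 against 16 of 64 of PC-3F and in 3 of 28 against 6 of 51 of MEF-3F, and their part in these 4 results was not tested.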

How the results depend on the processing

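Counts of called genes moved with most settings. Higher and lower genes numbered 4 and 11 with 500 UMIs per cell, 25 and 65 with 2000, 3 and 6 without thinning, 4 and 22 with a second random draw, 2 and 6 with a pseudocount of 10 CPM and 7 and 20 with no filter. Without weights they were 8 and 27, and with codes of sure decoding only 11 and 35. Chosen after seeing the data, a minimum of 2 UMIs of both genes gave 6 and 20, leaving out cells above 2 times the median UMIs gave 9 and 41, the second block of MEF-3F only gave 10 and 31, and leaving out cells with mesenchymal markers gave 0 and 1. Without each library in turn the counts ran from 0 to 14 higher and from 0 to 52 lower, with 14 and 52 without MEF-3F. Of the 14 higher genes 11 were called again with 2000 UMIs, and 2 with the second draw. List ratios were taken over 15 settings, without classes set after thinning, the setting that would remove the choice of deeper members. Mean log2 ratios kept their sign in these 15 for OPC (0.17 to 0.72), fibroblast (-0.51 to -0.27), TGF-beta and YAP (-1.55 to -0.88), cell cycle and chondrocyte lists. The lists of Sox10 targets and of Schwann genes did not keep theirs. Without cells with mesenchymal markers the OPC value was 0.17 and the fibroblast value -0.27, and the fibroblast list shares genes with those markers. The cause was not tested. Over 413 refits of 28 called genes 0 reversed and 204 lost the call. Several of the named higher genes were called in few of 16 fits, the main one included. Lect1 was called in 2, Cav1 in 3, Fabp7 and Ptprz1 in 4 and Mtss1 in 6. Olig1 and Col9a2 were called in 9, Hapln1 in 10 and Cspg5 in 11. Among lower genes, Ctgf was called in 13 and Nid1 in 14. No paired analysis was possible because each population had 1 library, beyond both classes sharing their library in the fit. Classes set after thinning could not be fitted, and leaving out MEF-2F changes nothing, as it had no members. Sums over 20 to 60 cells limit low genes.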
